A study of Mus musculus with 6 samples.

Results

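The genes described here are 8 interferon-inducible GTPase genes of the mouse, found by symbol among the 53700 genes of the count table: Irgm1, Irgm2, Igtp, Iigp1, Tgtp1, Tgtp2, Ifi47 and Gvin1. The first 7 belong to the immunity-related GTPase (IRG) family, and Gvin1 encodes a very large interferon-inducible GTPase. All 8 passed the filter on low counts. RNA sequencing of 6 colon tumours, each taken as bulk tissue, gave their levels in 2 groups. The APC-WT group (n = 3) came from mice that were cachectic, that is, wasting, after 10 days of doxycycline, and expressed their endogenous Tcf7l2. In the APC-KI group (n = 3) doxycycline represses Tcf7l2, a Wnt pathway transcription factor, throughout the body, and these mice had received it for 6 weeks and had recovered. Both groups were given doxycycline at 100 mg/kg in food pellets. The labels do not name the tumour model, strain, age or sex, nor what the inserted allele drives, and they do not say whether each tumour came from its own mouse, so the p-values measure the spread between these tumours. The effects of genotype, of treatment time and of cachexia cannot be told apart.

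IRG proteins are induced mainly by interferon gamma and defend cells against bacteria and parasites that live inside vacuoles. They fall into a regulatory class, GMS (Irgm1, Irgm2 and Igtp, the last also known as Irgm3), which sits on the cell's own membranes and holds the others inactive there, and an effector class, GKS (Iigp1, also Irga6; Tgtp1 and Tgtp2, also Irgb6; Ifi47, also Irgd), which loads onto vacuoles that hold a pathogen and breaks them. The very large GTPases are also induced by interferons, and their function is less well known. Irgm1 is also studied in the mouse intestine, where its loss alters Paneth cells and inflammation.

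The libraries held between 51777342 and 63921108 counts, of which 14185 to 23135 in APC-WT and 45068 to 64982 in APC-KI fell on the 8 genes. Tcf7l2 was lower in APC-KI, as its label states, by 2.89 on the log2 scale (SE 0.19, edgeR adjusted p = 0.00124). Epithelial markers such as Epcam and Krt8 were abundant in every library, with a summed level of 7861 to 9051 CPM (counts scaled to a common library size) in APC-WT and 9987 to 11924 in APC-KI. APC-WT replicates 1 and 2 held 19164 and 16055 counts on 4 Y-linked genes, whereas APC-WT replicate 3 and the APC-KI libraries held 0, so the APC-WT group mixes libraries with and without them. Calls or changes among the 8 genes, their relatives and the interferon pathway lists are given again without those 2 libraries. Summed copies and cell type markers are given over all 6 libraries alone.

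The upstream sequences of the genes are shown because IRG genes are switched on through short interferon motifs near their start. An ISRE, which is read by interferon regulatory factors, was searched as GAAA, any 2 bases and GAAA, and a GAS element, a motif through which interferon gamma acts, as TTC, any 3 bases and GAA, on both strands of each RefSeq promoter (GRCm38.p6, 250 bases before to 50 after the start). RefSeq rows were at hand for 6 of the 8 genes, Iigp1 and Gvin1 having none. Of these 6 promoters 5 held an ISRE and 4 held a GAS element directly before it, with a gap of at most 10 bases. Among 32851 mouse promoters of the same length 3.44% held an ISRE, 8.30% a GAS element and 0.113% both in this order. The stretches below run 5′ to 3′ on the strand of the gene, with motif letters in capitals.
Irgm1, chr11:48871423-48871478, minus strand: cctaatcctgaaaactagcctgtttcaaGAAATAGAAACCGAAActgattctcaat
Irgm2, chr11:58214885-58214940, plus strand: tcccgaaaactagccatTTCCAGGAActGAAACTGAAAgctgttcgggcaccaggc
Igtp, chr11:58199494-58199549, plus strand: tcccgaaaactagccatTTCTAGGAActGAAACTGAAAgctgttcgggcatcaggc
Tgtp1, chr11:48992296-48992351, minus strand: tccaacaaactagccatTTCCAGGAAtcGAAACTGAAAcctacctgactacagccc
Tgtp2, chr11:49064255-49064310, minus strand: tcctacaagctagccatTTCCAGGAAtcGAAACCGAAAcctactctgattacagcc
Gm12185, an IRG relative, chr11:48927230-48927285, minus strand: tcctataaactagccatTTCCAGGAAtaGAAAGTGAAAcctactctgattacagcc

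Among the sequences shown Irgm1 carried 2 overlapping ISRE matches and no GAS match. In Irgm2, Igtp, Tgtp1, Tgtp2 and Gm12185 the GAS match preceded the ISRE match, and the promoters of Irgm2 and Igtp shared an identical run of 61 bases, those of Tgtp1 and Tgtp2 a run of 27. The Ifi47 window held neither motif. Of 7 relatives of the families with a promoter row 4 held an ISRE and 1, the Gm12185 shown, held a GAS element directly before it, while Gm5431, 9930111J21Rik2 and Irgq held neither motif. A match here is a run of letters and says nothing of whether a factor was bound.

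Of the 8 GTPase genes 7 rose in APC-KI tumours and 0 fell, against a background of 12.5% called higher and 7.63% called lower among the 19127 genes tested (edgeR quasi-likelihood test, Benjamini-Hochberg adjusted over all genes). DESeq2 and limma-voom gave the same numbers, beside 15.3% and 13% of genes called higher, and all 8 fitted changes were above 0. The groups did not overlap for any of the 8, which held for 23% of all genes in this direction. The median log2 change of the 8 was 1.74, beside −0.02 over all genes tested. In exact two-sided permutation tests each of the 8 reached p = 0.1, the smallest that 3 against 3 libraries allow. More cells of a type and more RNA per cell cannot be told apart in bulk tumours.

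**Figure D1:**
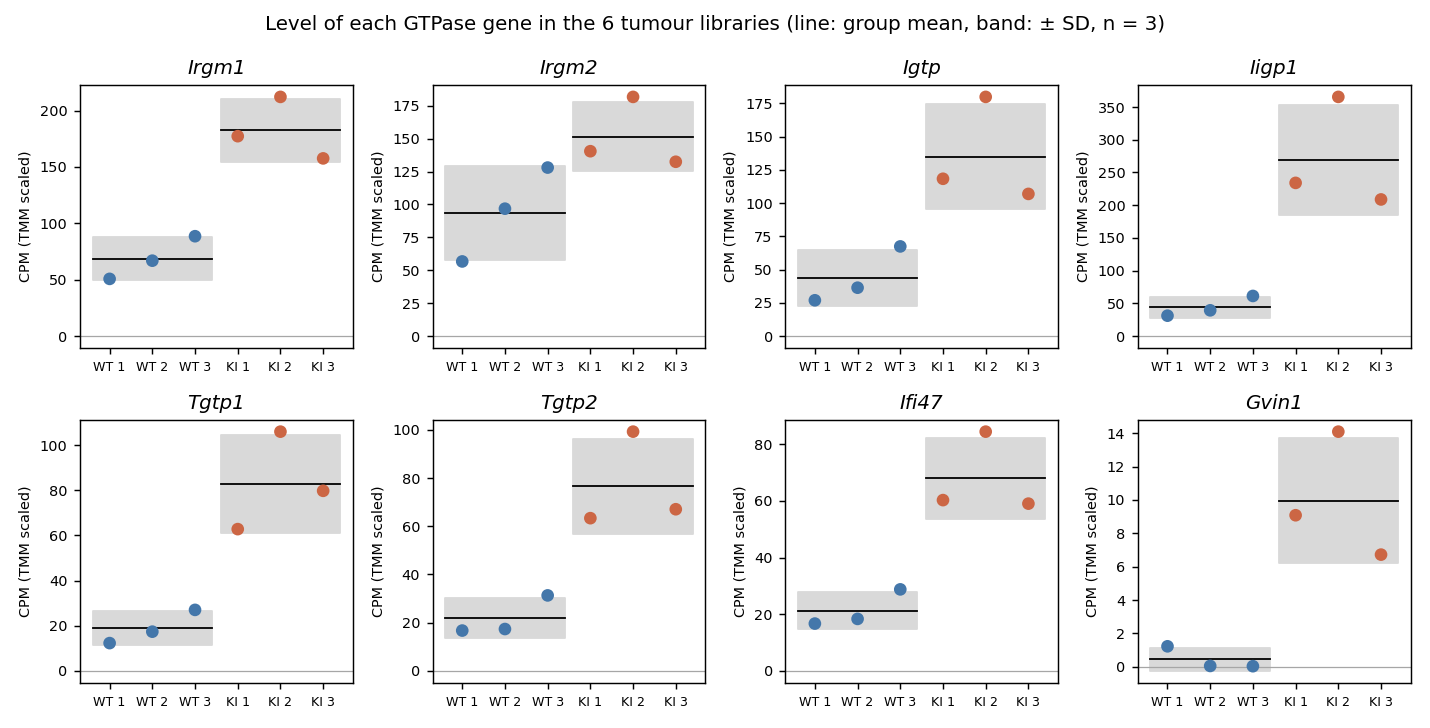
Level of each gene in CPM (vertical axis, linear, TMM scaled) in the 3 APC-WT and 3 APC-KI libraries (horizontal axis). Points are libraries, lines are group means and grey bands are the SD (n = 3). APC-KI replicate 2 is the highest point in all 8 panels, and the groups come closest for Irgm2, at 128 against 132 CPM.

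The regulatory genes sit on chromosome 11. Irgm1 (ENSMUSG00000046879, chr11:48861968-48871683, minus strand, GRCm38) protects the cell's own membranes from the effectors. Its level was 50.8, 66.9 and 88.6 CPM in APC-WT replicates 1 to 3, compared with 177, 212 and 158 CPM in APC-KI. Every APC-KI library was thus above every APC-WT library, the lowest being 1.78 times the highest APC-WT value. edgeR put the log2 change at 1.41 ± 0.22 (SE), with an adjusted p of 0.0101, or 2.65-fold.

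Igtp (ENSMUSG00000078853, chr11:58199556-58207591, plus strand) encodes a regulator found on the endoplasmic reticulum and lipid droplets. It was measured at 27.0, 36.4 and 67.5 CPM in APC-WT, while APC-KI held 118, 180 and 107 CPM. APC-WT replicate 3 stood well above the other 2 APC-WT libraries and still below all APC-KI libraries. The fitted log2 change in edgeR was 1.63 ± 0.37 (SE), with an adjusted p of 0.0297, or 3.10-fold. The call of Igtp was lost when APC-WT replicate 1 (adjusted p = 0.0658), APC-WT replicate 2 (0.101), APC-KI replicate 1 (0.0735) or APC-KI replicate 2 (0.0820) was left out.

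Irgm2 (ENSMUSG00000069874, chr11:58199618-58222782, plus strand), the regulator linked to the Golgi, was the exception among the 8. The APC-WT libraries held 56.7, 96.8 and 128 CPM of it, the APC-KI libraries 140, 182 and 132 CPM. The lowest APC-KI library lay only 1.03 times above APC-WT replicate 3. In the edgeR fit the log2 change came to 0.69 ± 0.29 (SE), with an adjusted p of 0.136, and it passed in 0 of 19 alternative analyses. The gene models of Irgm2 and Igtp overlap on the same strand over 162 exonic bases, 4.39% of Irgm2 and 8.01% of Igtp, and reads there may be assigned to neither or to either.

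Among the effectors Iigp1 (ENSMUSG00000054072, chromosome 18), the best studied vacuole-breaking IRG protein, changed most. Its level was 31.2, 39.5 and 61.4 CPM in APC-WT, compared with 234, 365 and 209 CPM in APC-KI. The lowest APC-KI library was 3.40 times the highest APC-WT library. edgeR put the log2 change at 2.61 ± 0.32 (SE), with an adjusted p of 0.00666, or 6.12-fold. No stretch of 75 bases of Iigp1 or of Irgm1 occurs in another annotated gene, so their counts are the least open to reads from copies.

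Tgtp1 (ENSMUSG00000078922, chr11:48985327-48994172, minus strand) and Tgtp2 (ENSMUSG00000078921, chr11:49057194-49064206, minus strand) encode nearly identical effectors. Tgtp1 was at 12.3, 17.4 and 27.0 CPM in APC-WT, against 62.8, 106 and 79.8 CPM in APC-KI, a log2 change of 2.13 (SE 0.33, edgeR adjusted p = 0.0104). Tgtp2 was at 16.7, 17.4 and 31.3 CPM in APC-WT, against 63.4, 99.3 and 67.1 CPM in APC-KI, a log2 change of 1.81 (SE 0.30, edgeR adjusted p = 0.0129). Both rose, and for both the groups lay far apart. Of all 75-base stretches 77.2% in Tgtp1 and 81.4% in Tgtp2 also occur in another gene, so the split of counts between the pair is uncertain. Added up, the pair held 1937, 1976 and 3120 counts in APC-WT and 6568, 10730 and 8253 counts in APC-KI, a log2 change of 1.97 (edgeR adjusted p = 0.0109). Tgtp2 lost its call without APC-WT replicate 2 (adjusted p = 0.0520).

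Ifi47 (ENSMUSG00000078920, chr11:49076587-49096974, plus strand), an effector also known as Irg47, held no motif match in its upstream window, and it rose. It was at 16.7, 18.4 and 28.8 CPM in APC-WT, compared with 60.3, 84.5 and 59.0 CPM in APC-KI. The lowest APC-KI library was 2.05 times the highest APC-WT library. The fitted log2 change in edgeR was 1.68 ± 0.25 (SE), with an adjusted p of 0.00936, or 3.19-fold. The olfactory receptor gene Olfr56 shares 111 exonic bases with Ifi47 on the same strand (4.49% of Ifi47), and it too was higher, at 137, 111 and 215 counts in APC-WT and 491, 587 and 462 in APC-KI.

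**Figure D2:**
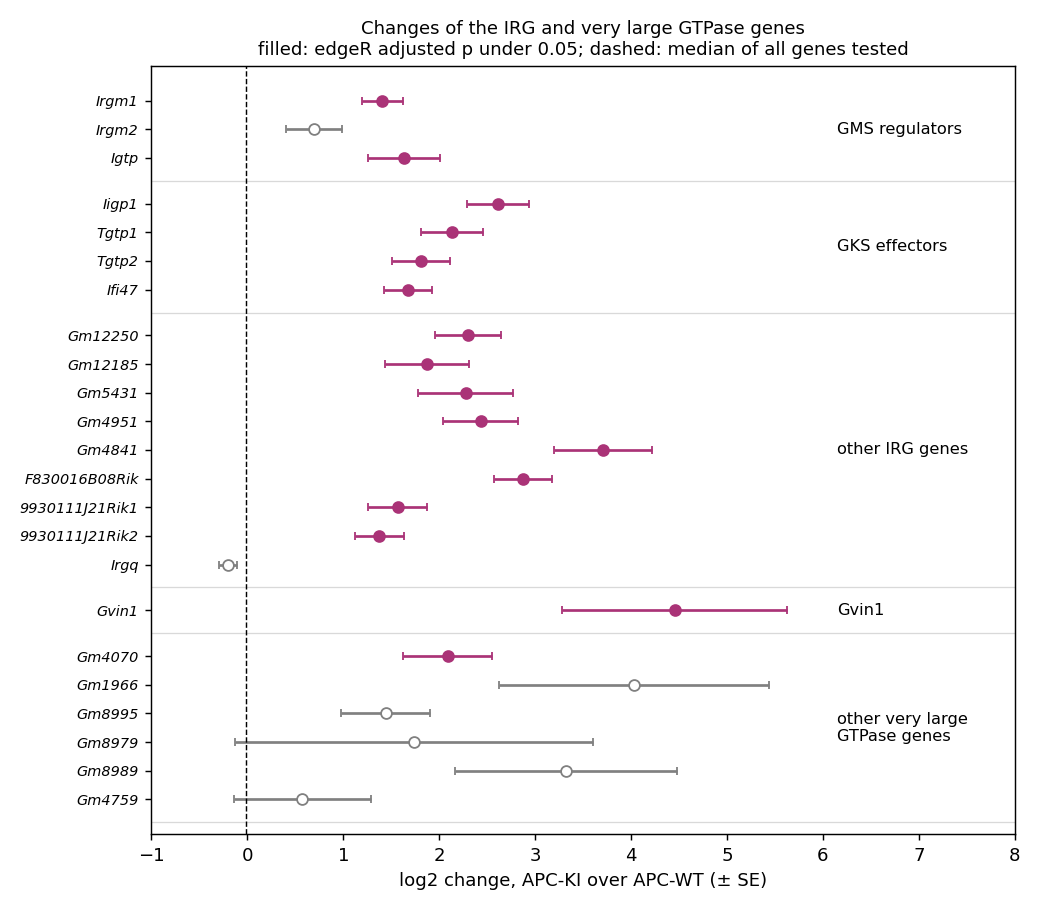
Log2 change of each gene, APC-KI over APC-WT (horizontal axis, ± SE from edgeR), by class (vertical axis). Filled points passed at an adjusted p of 0.05, open points did not, and the dashed line is the median of all genes tested. Iigp1 leads the effectors at 2.61, Irgm2 is the lowest of the 8 at 0.69, and the very large GTPase genes carry the widest errors.

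Counts on the effectors were higher relative to the regulators in every APC-KI library. Counts on the 4 effectors divided by counts on the 3 regulators gave 0.573, 0.462 and 0.523 in APC-WT and 0.964, 1.14 and 1.04 in APC-KI. The groups did not overlap in this ratio, which needs no library scaling and was chosen after the values were seen. Among all 28 pairs of the 8 genes, the ratio of counts did not overlap between groups in 21. The pairs share genes and are not independent, and every pair that holds Irgm2 was among the 21. Pairs of other genes were not compared. Irgm2 over Iigp1 gave 1.82, 2.45 and 2.09 in APC-WT and 0.600, 0.497 and 0.634 in APC-KI. By contrast Igtp over Ifi47 overlapped, with mean log2 ratios 0.00 apart, and so did Igtp over Tgtp2, with a difference of −0.14. Irgm1 and Irgm2 were lower over each effector in APC-KI. The summed ratio thus does not hold for every regulator and effector taken singly. The exact two-sided permutation p was 0.1 for each of the 21 pairs, or 0.133 after Benjamini-Hochberg adjustment over the 28, so no ratio passed, and with 3 against 3 libraries none can.

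The order of the genes by level can be read only per length. In CPM per kilobase of exon (RPKM), the APC-WT means were 25.4 ± 9.69 for Irgm2, 21.6 ± 10.5 for Igtp, 11.8 ± 3.27 for Irgm1, 8.61 ± 2.65 for Ifi47, 7.56 ± 2.68 for Iigp1, 7.42 ± 2.81 for Tgtp2, 5.90 ± 2.33 for Tgtp1 and 0.0489 ± 0.0759 for Gvin1 (SD, n = 3). In APC-KI the order was Igtp at 66.8 ± 19.4, Iigp1 at 46.3 ± 14.4, Irgm2 at 41.1 ± 7.16, Irgm1 at 31.4 ± 4.75, Ifi47 at 27.5 ± 5.79, Tgtp2 at 26.1 ± 6.72, Tgtp1 at 25.8 ± 6.79 and Gvin1 at 1.11 ± 0.418 RPKM. Neighbours in either order overlapped across libraries, except Tgtp1 and Gvin1, which lay apart in both groups. Iigp1 thus stood below Irgm2, Igtp, Irgm1 and Ifi47 by its APC-WT mean and below Igtp alone by its APC-KI mean.

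The libraries also varied together within a group. APC-KI replicate 2 was the highest APC-KI library for all 8 genes, and APC-WT replicate 3 was the highest APC-WT library for 7, Gvin1 being the exception. After removal of the group means, the correlation of a gene's log2 CPM with the mean of the other members over the 6 libraries was between 0.83 (Irgm2) and 0.99 (Iigp1) for the 7 IRG genes and −0.60 for Gvin1. These points share library and depth, and the values are a description. APC-WT replicate 3 is also the 1 APC-WT library with no Y-linked counts.

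The calls were weaker without the libraries that hold Y-linked counts. With the 4 libraries that hold no Y-linked counts, in which APC-WT replicate 3 stands alone and takes its spread from APC-KI, 1 of the 8 genes (Gvin1) was called by edgeR, against 0.872% of all genes called higher, and 7 had an unadjusted p under 0.05. The changes were smaller for the 7 IRG genes, at 1.04 for Irgm1, 0.24 for Irgm2, 1.00 for Igtp, 2.13 for Iigp1, 1.61 for Tgtp1, 1.29 for Tgtp2 and 1.24 for Ifi47 on the log2 scale, with adjusted p between 0.0579 and 0.701 over this fit and the next. With Y-linked counts as a covariate over all 6 libraries 0 of the 8 were called, beside 1.15% of all genes, and again 7 had an unadjusted p under 0.05. All 8 changes remained above 0 in both fits. With 1 library left out, 6 of the 8 passed without APC-WT replicate 1 (beside 8.01% of all genes), 4 without APC-WT replicate 2 (Irgm1, Iigp1, Tgtp1 and Ifi47, beside 4.02%) and 6 without APC-WT replicate 3 (12.9%). The numbers were 5 without APC-KI replicate 1 (4.95%), 5 without APC-KI replicate 2 (5.02%) and 6 without APC-KI replicate 3 (11.9%). With no filter on low counts 5 passed, beside 7.09%. The part of sex in these results was not tested apart from these fits.

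**Figure D3:**
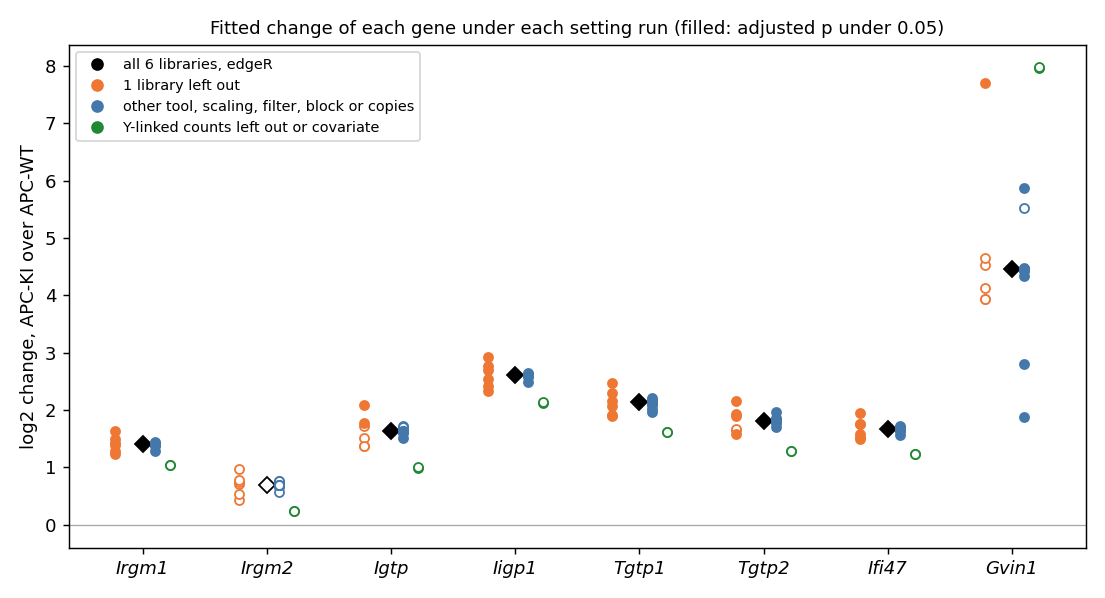
Log2 change of each gene, APC-KI over APC-WT (vertical axis), under each analysis run. Diamonds are the fit of all 6 libraries, circles are alternatives, and filled symbols passed at an adjusted p of 0.05. The values for the 7 IRG genes stay above 0 and are lowest where Y-linked counts are left out or modelled. Gvin1 on its own ranges from 3.93 to 7.98. Its points at 1.89 and 2.80 are sums, with its 6 relatives and with Gm4070.

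Gvin1 (ENSMUSG00000045868, chr7:106156556-106215326, minus strand) behaved differently from the IRG genes. Its counts were 82, 3 and 2 over APC-WT replicates 1 to 3, compared with 473, 737 and 378 over APC-KI, or 1.23, 0.0528 and 0.0374 CPM against 9.09, 14.1 and 6.73 CPM. It was close to absent from APC-WT replicates 2 and 3 and present in the other 4 libraries, though APC-WT replicate 1 was still 5.47 times below the lowest APC-KI library. In the edgeR fit the log2 change came to 4.45 ± 1.17 (SE), with an adjusted p of 0.0430, or 21.9-fold. Without APC-WT replicate 1 it was 7.71 (adjusted p = 0.00502), and the call was lost without any 1 of the other 5 libraries (log2 3.93 to 4.65, adjusted p 0.0501 to 0.105). The fold of Gvin1 therefore rests on single APC-WT libraries. Whether the mice differ in strain background or haplotype at this cluster was not tested, and such a difference would change what the counts of Gvin1 mean.

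Gvin1 has a near-identical neighbour, Gm4070 (chr7:105895139-105953967), another very large GTPase gene. Of the 75-base stretches of Gvin1 97.5% also occur in Gm4070, and the division of counts between the pair is uncertain. Gm4070 held 78, 133 and 221 counts in APC-WT and 530, 734 and 460 in APC-KI, and it rose (log2 change 2.09, SE 0.47, edgeR adjusted p = 0.0272). Added up, the pair held 160, 136 and 223 counts in APC-WT and 1003, 1471 and 838 in APC-KI. The sum lay between 2.39 and 4.17 CPM across APC-WT, where the share of it assigned to Gvin1 was 51.3%, 2.21% and 0.897% in replicates 1 to 3, beside 47.2%, 50.1% and 45.1% in APC-KI. As 1 gene the pair was higher in APC-KI by 2.80 on the log2 scale, or 6.96-fold (edgeR adjusted p = 0.00591), a sum made after the counts were seen. How the authors' counting divided reads between the pair was not tested.

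The other very large GTPase gene models of the chromosome 7 cluster showed the same pattern in part. GENCODE M21 annotates Gm4070 as protein coding and Gm8995 as a transcribed unprocessed pseudogene. It annotates Gm1966, Gm8979, Gm8989 and Gm4759 as unprocessed pseudogenes. Of 6 tested in edgeR, 1 (Gm4070) was called higher, beside 12.5% of all genes, and 4 had an unadjusted p under 0.05. DESeq2 called 3 of 5 tested and limma-voom 2 of 6, beside 15.3% and 13% of all genes. With Y-linked counts as a covariate 0 of the 6 were called by edgeR, beside 1.15% of all genes. In the 4 libraries without Y-linked counts their median log2 change was 1.95, beside 1.91 with all 6. Without APC-WT replicate 1 edgeR called 3 (8.01% of all genes), and without APC-KI replicate 3 it called 2 (11.9%). It called 0 without APC-WT replicate 2 (4.02%), APC-KI replicate 1 (4.95%) or APC-KI replicate 2 (5.02%). In these last 3 fits 2 to 3 had an unadjusted p under 0.05. Gm1966 held 232, 2 and 3 counts in APC-WT and 834, 1503 and 842 in APC-KI, the pattern of Gvin1. Gm8979 held 4574, 1 and 2 counts in APC-WT and 4510, 4032 and 3698 in APC-KI. In APC-WT replicate 1 Gm8979 was thus as high as in APC-KI, and its log2 change of 1.74 (SE 1.86, adjusted p = 0.528) is an average of tumours with and without it. Gm8995 was at 554, 1150 and 1317 counts in APC-WT and 2163, 3749 and 1737 in APC-KI, with groups apart and an adjusted p of 0.0732. Gm8989 and Gm4759 overlapped between groups. Gvin1 and these 6 genes added up rose by 1.89 on the log2 scale, 3.70-fold (edgeR adjusted p = 0.0398).

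**Figure D4:**
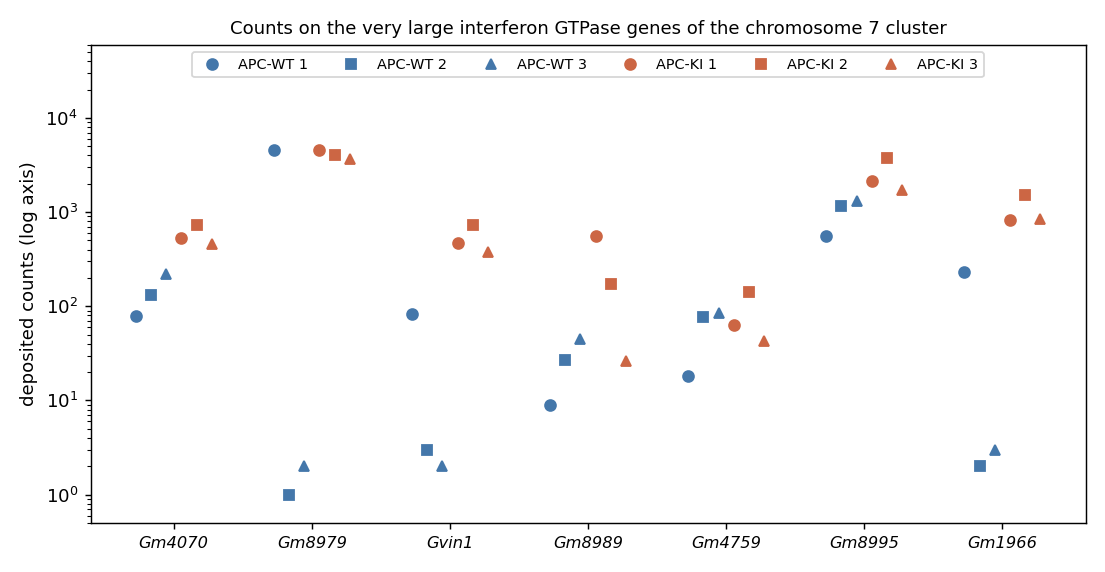
Deposited counts (vertical axis, log scale) on Gvin1 and its 6 relatives of the chromosome 7 cluster (horizontal axis), 1 symbol per library. APC-WT replicates 2 and 3 lie at 1 to 3 counts for Gm8979, Gvin1 and Gm1966, where APC-WT replicate 1 holds 4574, 82 and 232.

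The remaining IRG family genes followed the 7 described. Of 9 tested 8 rose, beside 12.5% of all genes, with a median log2 change of 2.28 over the 9. Gm12250 encodes Irgb10, which acts with guanylate-binding proteins on bacterial membranes, and it rose from 285, 267 and 419 counts to 1264, 2039 and 1101 (log2 change 2.30, SE 0.34, edgeR adjusted p = 0.00941). Gm4841 changed most, from 31, 29 and 51 counts to 438, 661 and 231 (log2 change 3.71, SE 0.51, adjusted p = 0.00773). F830016B08Rik (2.88), Gm4951 (2.43), Gm5431 (2.28), Gm12185 (1.87), 9930111J21Rik1 (1.57) and 9930111J21Rik2 (1.38) also rose on the log2 scale. Irgq, a family member that is not interferon-inducible, was at −0.20 (adjusted p = 0.165). Of the 9, 4 passed without APC-WT replicate 2 (beside 4.02% of all genes), 5 without APC-KI replicate 1 (4.95%) and 4 without APC-KI replicate 2 (5.02%). In the 4 libraries without Y-linked counts 0 passed in edgeR, although 8 changes were above 0 and 8 had an unadjusted p under 0.05.

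The guanylate-binding proteins, larger interferon-inducible GTPases that act on the same vacuoles, rose in 8 of 11 cases, beside 12.5% of all genes (median log2 change 1.60). Gbp2 went from 2300, 2683 and 3942 counts to 13899, 19595 and 15602 (log2 change 2.57, SE 0.30, edgeR adjusted p = 0.00622), and Gbp5 (2.16), Gbp7 (1.50) and Gbp8 (1.37) were the others with the smallest p. DESeq2 called 10 of the 11 and limma-voom 9, beside 15.3% and 13% of all genes. Without APC-WT replicate 2, 4 of the 11 passed in edgeR, beside 4.02% of all genes. With Y-linked counts as a covariate 1 passed, beside 1.15%. In the 4 libraries without Y-linked counts the median log2 change was 1.24. The Mx GTPases, which are induced by type I and III interferons, passed in 0 of 2 cases by edgeR, DESeq2 and limma-voom, with an unadjusted p under 0.05 for 0 of the 2 in edgeR and for 1 in each of the other tools. Mx1 was at 85, 290 and 464 counts in APC-WT and 562, 766 and 490 in APC-KI (log2 change 1.19, SE 0.62, adjusted p = 0.213), and Mx2 overlapped between groups (0.46).

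The ligands that induce these genes were scarce. Ifng, which encodes interferon gamma, held 7, 10 and 9 counts in APC-WT and 37, 79 and 15 in APC-KI, with APC-KI replicate 2 again the highest library. It rose by a log2 change of 2.46 (SE 0.66, edgeR adjusted p = 0.0442). Ifne, an epithelial type I interferon of mucosal surfaces, held 3, 8 and 0 counts in APC-WT and 24, 14 and 52 in APC-KI (log2 change 3.11, SE 0.87, adjusted p = 0.0477). The other 9 ligands of types I and III listed held at most 2 counts in any library and were not tested. Both calls rest on few counts.

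Of 9 receptor and kinase genes 4 rose, beside 12.5% of all genes. Ifngr1, the ligand-binding chain of the interferon gamma receptor, was at 8934, 7778 and 7284 counts in APC-WT and 13791, 14298 and 12158 in APC-KI (log2 change 0.89, SE 0.10, edgeR adjusted p = 0.00532). Il10rb, a shared chain of the type III receptor, rose by 0.55, and the kinases Jak2 and Jak1 by 0.37 and 0.34 on the log2 scale. Ifngr2, the second chain of the interferon gamma receptor, did not pass (0.20, adjusted p = 0.151).

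Of 12 transcription factors 7 rose, beside 12.5% of all genes. Irf1, which binds ISRE elements and is itself induced by interferon gamma, went from 8136, 9466 and 9351 counts to 15832, 18552 and 13506 (log2 change 0.96, SE 0.19, edgeR adjusted p = 0.0186). Batf2 (1.56), Stat2 (0.84) and Irf2 (0.35) were the other 3 with the smallest p. Irf8, a factor of myeloid and B cells, did not pass (log2 change 0.81, adjusted p = 0.0583).

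Among 8 brakes of the pathway 1 rose, a share equal to the 12.5% of all genes called higher. It was Socs1, an inhibitor of JAK kinases that interferon gamma induces, which went from 187, 144 and 158 counts to 389, 532 and 266 (log2 change 1.43, SE 0.30, edgeR adjusted p = 0.0219). Of 12 genes that act upstream of Ifng 4 rose, beside 12.5% of all genes: Il18rap (0.96), Stat4 (1.34), Il12b (2.07) and Il12rb2 (1.53 on the log2 scale).

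The partners that load IRG proteins onto membranes were examined next. The ATG8 conjugation machinery (Atg5, Atg7, Atg16l1 and related genes), which directs IRG effectors to the right membrane, passed in 0 of 12 cases by edgeR and limma-voom and in 1 by DESeq2, with 2 at an unadjusted p under 0.05 in edgeR. With RLE factors 1 passed as higher, and with library totals alone 1 passed as lower. Its median log2 change was −0.06, and the 2 with the smallest p, Gabarap (0.27, edgeR adjusted p = 0.0502) and Atg4b (−0.17, adjusted p = 0.118), lay in opposite directions. Of 8 genes of the ubiquitin coat that follows IRG loading, Trim21 (0.68) and Rnf213 (0.49 on the log2 scale) rose, beside 12.5% of all genes. With library totals alone 1 gene of this list was called higher and 3 lower, and DESeq2 called 2 higher and 1 lower.

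Counts of calls in these lists depended on single libraries, as did those over all genes. The share of all genes called higher was 12.5% with all 6 libraries. It was 8.01%, 4.02% and 12.9% without APC-WT replicates 1, 2 and 3 in turn. Without APC-KI replicates 1, 2 and 3 in turn it was 4.95%, 5.02% and 11.9%. Of the 12 transcription factors 1 passed without APC-WT replicate 2 or without APC-KI replicate 1, 2 without APC-KI replicate 2 and 3 without APC-WT replicate 1. Of the 9 receptor and kinase genes 2 passed without APC-WT replicate 2, APC-KI replicate 1 or APC-KI replicate 2. Of the 12 genes upstream of Ifng 1 passed without APC-WT replicate 1 or 2 or APC-KI replicate 1 or 2, and 2 without APC-WT replicate 3. Both tested ligands, Ifng and Ifne, failed edgeR's threshold when any library but APC-KI replicate 3 was left out, where 1 passed, although both kept an unadjusted p under 0.05 each time. Socs1 failed without APC-WT replicate 1 or 2 or APC-KI replicate 1 or 2. The ubiquitin coat genes passed in 0 cases in edgeR without APC-WT replicate 2, APC-KI replicate 1 or APC-KI replicate 2 and in 1 without APC-WT replicate 1 or APC-KI replicate 3, with 3 to 4 at an unadjusted p under 0.05. In the 4 libraries without Y-linked counts 0 genes of these lists passed in edgeR, with an unadjusted p under 0.05 for 4 transcription factors, 3 receptor and kinase genes, 3 genes upstream of Ifng, 1 ligand, 1 brake, 1 ubiquitin coat gene and 0 genes of the ATG8 machinery or the Mx pair.

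**Figure D5:**
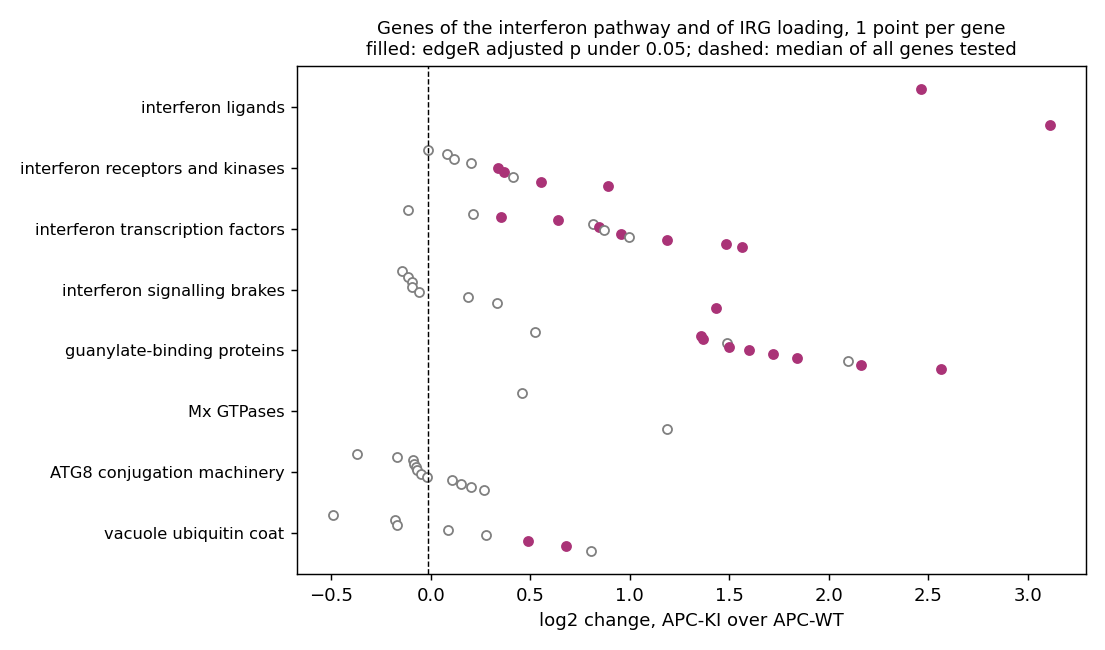
Log2 change of each tested gene of the interferon pathway and of IRG loading, APC-KI over APC-WT (horizontal axis), by list (vertical axis). Filled points passed at an adjusted p of 0.05, and the dashed line is the median of all genes tested. The guanylate-binding proteins range from 0.52 to 2.57, and the ATG8 machinery from −0.37 to 0.27.

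Markers of several cell types moved with the GTPase genes. Over all genes 12.5% were called higher and 7.63% lower. Of 8 epithelial markers 5 rose, with a summed level of 7861 to 9051 CPM in APC-WT and 9987 to 11924 CPM in APC-KI. Of 9 T and NK cell markers tested 5 rose, with a summed level of 20.6 to 27.9 CPM in APC-WT and 39.7 to 64.9 CPM in APC-KI. Of 8 B and plasma cell markers 6 rose (842 to 1308 against 5786 to 14356 CPM). Of 9 macrophage and monocyte markers 2 rose, and their summed level overlapped between groups (698 to 1161 against 908 to 1457 CPM). Lyz2 was the largest marker of this sum in every library and itself overlapped (log2 change 0.06, group means 452 against 471 CPM). Taken singly, the groups lay apart for 4 of the 9 markers, each higher in APC-KI, and overlapped for the rest. The overlap of the sum thus does not hold for every marker. The sums for macrophages, dendritic cells, fibroblasts and endothelial cells were, as for the IRG genes, highest in APC-WT replicate 3 and APC-KI replicate 2 of their groups. Other lists differed. In APC-WT the sums for T and NK, B and plasma and mast cells peaked in replicate 2, and the neutrophil sum in replicate 1. In APC-KI the epithelial sum peaked in replicate 1 and the smooth muscle sum in replicate 3. Dendritic cell markers (2 of 6 rose, 27.0 to 44.5 against 65.3 to 80.3 CPM), fibroblast markers (2 of 5, 306 to 851 against 1032 to 1479 CPM) and smooth muscle markers (5 of 5, 104 to 295 against 661 to 1128 CPM) were also higher in sum. So were neutrophil markers (2 of 5, 291 to 360 against 446 to 638 CPM) and endothelial markers (2 of 5, 148 to 198 against 211 to 260 CPM). Mast cell markers fell in 6 of 6 cases (59.9 to 144 against 15.0 to 25.7 CPM). No listed marker was at 0 in all libraries. The part of any cell type in the change of the GTPase genes was not tested.

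The genes whose pattern over the 6 libraries was most like the mean of the 8 GTPase genes were Tor3a (r = 0.999), Apobec1 (0.999), Gbp7 (0.998), Peak1 (0.998), Ctss (0.998) and Nod1 (0.998), among 13686 genes compared by log2 CPM. Their correlation after removal of the group means was 0.994, 0.989, 0.982, 0.982, 0.984 and 0.979. Both group difference and library order enter the first measure, the points share library and depth, and 12.7% of all genes compared had r over 0.9.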

How the data were processed

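RNA was sequenced from 6 colon tumours in 2 groups of 3, grouped by sample title. Per the labels' protocols, tumours were pinched from the muscle, and libraries were made with a stranded TruSeq mRNA kit. The submitters' processing notes name STAR, Trim Galore (0.6.4), cutadapt (2.5), DESeq2 (1.37.6) and the builds GRCm38 and mm10. What counted the reads, with which strand setting and annotation release, is not given in the sources used here. Per the file headers and values, the authors' deposited table holds raw counts per Ensembl gene.

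GENCODE M21 named 52093 of 53700 identifiers and gave exon lengths and GRCm38 coordinates; 35 identifier versions equalled those of M21, so another release was counted. Counts were filtered with filterByExpr, scaled by TMM and tested with edgeR 4.0.16 (robust glmQLFit, glmQLFTest) in R 4.3.3, with group as the only term and Benjamini-Hochberg adjustment over 19127 genes at 0.05. The similarity measure used log2 CPM with a prior count of 2, for genes with a mean log2 CPM of at least 1. Each library was counted as a replicate. Between libraries of a group the chi-square per gene was 40.1 to 114, which cannot show whether the tumours came from separate mice. Alternatives were DESeq2 1.42.0, limma-voom 3.58.1, other scalings and filters, a replicate block, single libraries left out, Y-linked counts, and copies or relatives added up.

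The members, gene lists and tests were chosen with earlier results of these data known. All 8 members, the tested relatives, up to 4 genes of each other list by smallest p and 6 genes of most similar pattern were named by rule; Ifng, Irf1, Irf8, Ifngr1 and Ifngr2 always. Another gene that was always to be named is not reported here. Up to 2 markers of a cell type could be named. Olfr56, Gm27149, Gm18852 and Gm5970 were named after their values were seen. Motifs were searched in RefSeq promoters (GRCm38.p6), and no sequence is shown from chromosome 18.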

Additional observations from a re-analysis of the deposited data

How the results depend on the processing

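Over 19 alternatives no change of the 8 genes altered its sign. Some alternatives are sums that stand in for single genes: Tgtp1 with Tgtp2, Gvin1 with its 6 relatives, and Gvin1 with Gm4070. Irgm1, Iigp1, Tgtp1 and Ifi47 passed in 17, Tgtp2 in 16, Igtp and Gvin1 in 11 and Irgm2 in 0. With no filter on low counts Igtp (log2 change 1.63, adjusted p = 0.108) and Gvin1 (4.46, 0.144) lost their calls; more genes were tested. In the 4 libraries without Y-linked counts the members called fell to 1 (all genes: 178 higher, 152 lower), with log2 changes of 1.04 for Irgm1, 1.00 for Igtp, 2.13 for Iigp1, 1.61 for Tgtp1, 1.29 for Tgtp2 and 1.24 for Ifi47. With Y-linked counts as covariate 0 were called (all genes: 220 higher, 195 lower), at 1.04, 1.00, 2.13, 1.62, 1.29, 1.24 and, for Gvin1, 7.98; both fits leave few residual degrees of freedom. Library totals alone gave 1978 higher and 2844 lower genes and shifted the median of all genes by −0.116, and DESeq2 gave 3362 and 2230; both called 7 members. With 1 library left out in turn, the members called ranged from 4 to 6, all genes from 788 to 2542 higher and from 300 to 1595 lower, and the log2 changes from 1.37 to 2.09 for Igtp, 1.58 to 2.17 for Tgtp2 and 3.93 to 7.71 for Gvin1; the cause was not tested.

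The labels give replicate numbers without naming a pairing, and deviations of same-numbered libraries correlated at 0.03, −0.07 and −0.18. Such weak correlations cannot show that the libraries were unpaired. With the number as a replicate block 5 members passed, Igtp (1.71, adjusted p = 0.0604) and Gvin1 (5.52, 0.0637) did not, and all genes came to 1195 higher and 465 lower. Few counts were held by Gvin1, Gm1966 and Gm8979 in APC-WT replicates 2 and 3 and by the interferon ligands, where 1 count is 0.0150 to 0.0192 CPM. The totals of APC-WT replicates 2 and 3, at 54424511 and 51777342 counts, were close to those of APC-KI, at 54895823 to 56825956.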

Other observations

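Gm27149, a gene model inside the chromosome 7 cluster of very large GTPase genes, held 109, 0 and 1 counts in APC-WT and 130, 109 and 53 in APC-KI. A scan of all genes for at most 5 counts in 2 APC-WT libraries and at least 50 in the other 4 libraries, set after the counts of Gvin1 were seen, found 4 genes for APC-WT replicates 2 and 3: Gm8979, Gm27149, Gvin1 and Gm1966. All 4 lie on chromosome 7. The same scan found 0 genes for replicates 1 and 2 and 1 gene, Igkv4-50 on chromosome 6, for replicates 1 and 3. These libraries are not divided like the Y-linked counts, which were present in APC-WT replicates 1 and 2.

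In the 4 gene clusters that hold these families, on chromosomes 7, 11 and 18, 16 of 22 tested family genes, pseudogenes included, were called higher. So were 4 of 6 other gene models inside the clusters. Among these, on the same strand, Olfr56 shares 111 exonic bases with Ifi47 and Gm18852 shares 259 with Gm4070. Gm5970, a processed pseudogene, overlaps Gm4951 on the same strand with 0 exonic bases shared. Whether their counts hold reads of the family genes was not tested. Of the 24 nearest tested genes outside them 3 were called higher and 2 lower, beside 12.5% and 7.63% of all genes.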
